A study of Mus musculus with 6 samples.

Results

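Of the 37263 regions called as acetylated on histone H3 lysine 9 (H3K9Ace) in mouse macrophages, 11254 were chosen by what did not overlap them. They lie on autosomes, are narrower than 5000 bp, and share not even 1 bp with any region of 4 other lists. Those lists are H3K9Ace in 3T3-L1 adipocytes and, in macrophages, PU.1, C/EBPβ and the longer list of PPARγ regions. The 11254 regions are called factor-free macrophage-only regions here. They were set beside the other autosomal macrophage H3K9Ace regions under the same width limit. Together these made 36209 regions in 4 classes: the factor-free macrophage-only regions, 7662 macrophage-only regions with at least 1 of the 3 factors, 9528 regions acetylated in both cell types with a factor, and 7765 acetylated in both without one.

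H3K9Ace is a histone mark laid down by acetyltransferases at active promoters and enhancers, where it accompanies accessible chromatin. PU.1 is a member of the ETS family that myeloid cells need to form, and C/EBPβ belongs to the basic leucine-zipper factors; they are known to bind together at many macrophage enhancers. PPARγ is the nuclear receptor required to form fat cells, responds to lipid ligands, and is present in macrophages as well. Many other factors that bind macrophage promoters and enhancers were not mapped in this study, so a region without a mapped factor is not a region without any factor.

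The study used chromatin immunoprecipitation followed by sequencing (ChIP-seq), with 1 library for each antibody and cell type and so no replicates. Macrophages were primary thioglycollate-elicited peritoneal cells of male C57BL/6 mice, washed out 3 days after injection of 1 ml of 3% thioglycollate and kept adherent for 24 h. Cells of at least 4 animals were pooled for each run. The adipocytes were differentiated 3T3-L1 cells, an established preadipocyte line. No group carried a drug treatment or an altered allele according to the labels. Libraries were PPARγ (2 runs joined), PU.1, C/EBPβ and H3K9Ace in macrophages, and PPARγ and H3K9Ace in adipocytes. The adipocyte H3K9Ace list is the longer of the acetylation lists, with 51257 regions covering 100.1 Mb, against 53.1 Mb for the macrophage list. Read totals are not in these files, so depth is unknown and an absent call can mean a weak signal. No test over regions was made. Shares carry 95% Wilson intervals and medians carry 95% order-statistic intervals. Both allow for counting error alone, as if regions were independent of each other.

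The overlaps are the rule and not a finding, but they show what each list removed. Adipocyte H3K9Ace took out 17293 of the 36209 regions and left 18916. PU.1 removed a further 6318, C/EBPβ 948 of the rest, and the longer PPARγ list the last 396. These counts depend on the order of the lists. Taken alone, PU.1 overlapped 13403 (37%), C/EBPβ 9459 (26.1%) and longer-list PPARγ 5585 (15.4%) of the 36209 regions. The width limit removed nothing: 548 autosomal regions were 5000 bp or wider, and 0 of them met the other criteria. Of those 548, 475 had both adipocyte acetylation and a factor, 61 had a factor alone and 12 had adipocyte acetylation alone. Outside the autosomes, 73 of 506 regions met the criteria on overlap, and they were left out. At the edge of the rule, 368 of the factor-free macrophage-only regions (3.27%) lay within 50 bp of a region of the 4 lists. Just outside it, 291 regions failed through a single list by an overlap of 50 bp or less. The smallest gap to a factor was 0 bp, found at 3 regions that touched a PU.1 region without sharing a base: those at 130610251 to 130611350 on chromosome 7, 36582001 to 36582600 on chromosome 8 and 41711301 to 41712400 on chromosome 10. The PU.1 list does not state whether its starts count from 0 or 1. Read from 1, 1 of these 3 regions would overlap PU.1 by 1 bp and leave the class. All positions are in mouse build mm8.

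Factor-free macrophage-only regions were narrow. Their median width was 750 bp, with quartiles of 600 and 950 bp, against 1100 bp for macrophage-only regions with a factor, 1950 bp for regions acetylated in both with a factor and 1050 bp for those acetylated in both without one. The shortest width in the deposited list, 500 bp, was that of 1355 of them (12%, interval 11.5 to 12.7), against 5.95% of all 36209 regions. It was that of 3.47% of macrophage-only regions with a factor. Among regions acetylated in both, it was that of 0.871% with a factor and 5.78% without one. Under 1000 bp lay 78.1%, against 43.7% of all 36209 regions. Widths come in steps of 50 bp, and the counts broke off above 1100 bp: 480 factor-free macrophage-only regions were 1100 bp wide and 113 were 1150 bp wide. All 36209 regions showed a like drop, with 2013 and 756 regions at these widths, while the adipocyte list dropped between 1000 bp (3252 regions) and 1050 bp (924 regions). The 11254 regions covered 9.03 Mb in all, less than the 9.8 Mb of the 7662 macrophage-only regions that carried a factor.

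Width is tied to the rule, since a wide region has more chances to overlap something. Read in the other direction, factor-free macrophage-only regions made up 59.9% of the 9061 regions from 500 to under 750 bp, and 49.6% of the 6780 from 750 to under 1000 bp. Their share was 23.2% from 1000 to under 1500 bp, 6.26% from 1500 to under 2000 bp and 1.74% from 2000 to under 3000 bp. At 3000 bp and above it was 0.66%, or 15 of 2272 regions.

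**Figure D1:**
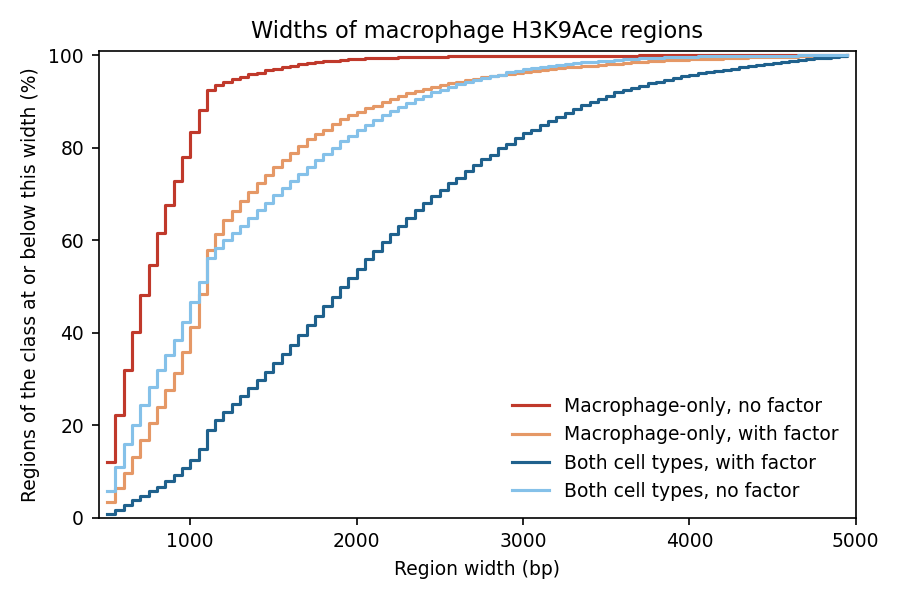
Cumulative share of regions (y axis, percent of the class) at or below each width (x axis, bp) for the 4 classes of autosomal macrophage H3K9Ace regions under 5000 bp. The curve of factor-free macrophage-only regions, with a median of 750 bp, lies left of the other 3, whose medians are 1100, 1950 and 1050 bp.

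The 5 widest factor-free macrophage-only regions each had a mapped factor within 2830 bp. The widest, 4950 bp at 62063451 to 62068400 on chromosome 11, lay 1973 bp from a C/EBPβ region and 28400 bp from adipocyte acetylation. The next, 4650 bp at 168836601 to 168841250 on chromosome 1, missed all 3 factors by short gaps, 81 bp for PU.1, 86 bp for C/EBPβ and 69 bp for PPARγ. The third, 3800 bp at 113125251 to 113129050 on chromosome 12, was 1899 bp from C/EBPβ and 400 bp from an adipocyte acetylated region. The other two were 3700 bp at 90530501 to 90534200 on chromosome 1, 2830 bp from C/EBPβ, and 3600 bp at 76436901 to 76440500 on chromosome 11, 153 bp from PPARγ. None of the 5 touched adipocyte PPARγ, whose nearest regions in the combined list were 33601 to 344849 bp away.

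Factor-free macrophage-only regions stood farther apart from other acetylated regions than the other classes did. The median gap from edge to edge to the nearest other macrophage H3K9Ace region was 5550 bp (interval 5350 to 5750), against 3100 bp for macrophage-only regions with a factor, 3450 bp for regions acetylated in both with a factor and 3300 bp for those without. Another acetylated region lay within 5000 bp of 5321 of them, 47.3% (46.4 to 48.2), against 60.5%, 57.3% and 58.2% in the same order. Over all 36209 regions, the background, this share was 55%.

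The difference from regions acetylated in both cell types was seen under 1000 bp of width and not above it. Among regions under 1000 bp, 44.8% of factor-free macrophage-only regions had such a neighbour, against 54.3% of macrophage-only regions with a factor and 69.8% of each class acetylated in both. From 1000 to under 2000 bp the share was 56.2%, below the 61% of macrophage-only regions with a factor, but close to the 56.1% of regions acetylated in both with a factor and above the 51.8% of those without. A group of 497 factor-free macrophage-only regions (4.42%) was over 100000 bp from any other macrophage H3K9Ace region, so that 95.6% had one within that distance, against 97.1% of all 36209 regions. Of the 497, 86 were over 500000 bp away.

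The nearest neighbour was more often of a macrophage-only class than the makeup of the list. Of the factor-free macrophage-only regions, 37.8% (36.9 to 38.7) had another of their own class as nearest acetylated neighbour and 27.7% a macrophage-only region with a factor, although these classes made up 30.6% and 21% of the autosomal list. Regions acetylated in both with a factor were the nearest neighbour in 20.9% of cases, against 27.2% of the list, and those without a factor in 13.6%, against 21.2%. Regions acetylated in both without a factor showed the opposite order: 17.9% had a factor-free macrophage-only region as nearest neighbour and 39.3% a region acetylated in both with a factor. Macrophage-only regions with a factor leaned the same way as factor-free ones, with 36.4% next to a factor-free macrophage-only region and 39.1% next to their own class. Own-class neighbours also exceeded the list share at regions acetylated in both with a factor (36.3%) and without one (34.8%).

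In the order of the list, 4374 factor-free macrophage-only regions (38.9%) stood as single entries between regions of other classes, and 3720 (33.1%) belonged to runs of 3 or more. The share in such runs was 31.2% for macrophage-only regions with a factor, 28.5% for regions acetylated in both with a factor and 25.7% for those without, and a larger class forms runs more easily. The longest runs of factor-free macrophage-only regions had 11 regions, against 9, 10 and 12 in those 3 classes. One, at 79400051 to 79601500 on chromosome 3, spanned 201.4 kb and held no adipocyte acetylation. It contained 2 PU.1, 4 C/EBPβ and 4 PPARγ regions between the acetylated ones, whose median width was 600 bp. The other run of 11 spread over 855.5 kb at 36256551 to 37112000 on chromosome 13, with 4 adipocyte H3K9Ace regions, 18 PU.1, 6 C/EBPβ and 8 PPARγ regions in between. The third, with 10 regions, covered 367.1 kb at 37649951 to 38017000 on chromosome 2, with 1 adipocyte H3K9Ace region and 7 PU.1 regions.

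The densest windows of 100 kb were mixed in content. The window at 44801201 to 44901200 on chromosome 2 held 16 factor-free macrophage-only regions among 24 macrophage H3K9Ace regions, together with 8 PU.1, 4 C/EBPβ and 16 longer-list PPARγ regions and 6 adipocyte H3K9Ace regions. The windows at 8433851 to 8533850 on chromosome 11 and 102743451 to 102843450 on chromosome 12 held 13 each, among 25 and 18 acetylated regions. They had 15 and 14 PU.1, 11 and 13 C/EBPβ, and 10 and 7 PPARγ regions. For scale, the flanks of factor-free macrophage-only regions at 5000 to 10000 bp held 7.57 PU.1, 4.45 C/EBPβ and 3.45 PPARγ centres per 100 kb. The first window stood above this in PPARγ, hardly in PU.1 and not in C/EBPβ. The windows on chromosomes 11 and 12 stood above it in PU.1, C/EBPβ and PPARγ alike. At the other extreme, a window of 100 kb begun at a factor-free macrophage-only region held no second one in 3656 of 11254 cases (32.5%).

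Most factor-free macrophage-only regions had a mapped factor in the neighbourhood. The median gap to the nearest region of PU.1, C/EBPβ or the longer PPARγ list was 3612 bp (3469 to 3764), with quartiles of 1109 and 10334 bp. A factor lay within 1000 bp of 2616 of them (23.2%) and within 10000 bp of 8365 (74.3%, 73.5 to 75.1). Over all 19019 regions without an overlapping factor, the background, the share within 10000 bp was 74%. Regions acetylated in both cell types without a factor gave almost the same values, a median gap of 3605 bp and 73.5% (72.5 to 74.5) within 10000 bp.

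This likeness over all widths hid opposite differences at different widths. Among regions under 1000 bp, 72.6% (71.7 to 73.5) of factor-free macrophage-only regions had a factor within 10000 bp, against 81.5% (80.1 to 82.8) of regions acetylated in both without a factor. From 1000 to under 2000 bp the order was the reverse, 80.3% (78.7 to 81.9) against 67.7% (66.1 to 69.3). From 2000 to under 5000 bp it was 83.7% of 98 regions, against 67.5% of 1349.

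By factor, PU.1 was nearest and PPARγ farthest, the order of the lengths of the lists, with 46356 PU.1, 24421 C/EBPβ and 18470 longer-list PPARγ regions. The median gap of factor-free macrophage-only regions was 5128 bp to PU.1 (4935 to 5289), 10714 bp to C/EBPβ (10363 to 11162) and 16756 bp to PPARγ (16156 to 17528). Over all widths, regions acetylated in both without a factor lay somewhat farther from PU.1 (5614 bp, 5419 to 5926) and C/EBPβ (12364 bp, 11767 to 12995). For PPARγ (17544 bp, 16701 to 18317) the intervals overlapped. The values by factor are not split by width here. The closest factor region was PU.1 in 58.5% of cases, C/EBPβ in 22.9% and PPARγ in 18.4%, where the lists supply 51.9%, 27.4% and 20.7% of all factor regions. Regions acetylated in both without a factor had nearly the same shares, 57.6%, 23.9% and 18.4%. All 3 factors lay within 10000 bp of 3087 regions (27.4%), against 24.5% of regions acetylated in both without a factor. PU.1 alone was there at 1863 (16.6%), C/EBPβ alone at 404 (3.59%) and PPARγ alone at 366 (3.25%), against 17.2%, 3.81% and 3.97%. A factor lay within 10000 bp on both sides of 34.4% of regions and on 1 side of 39.9%, against 32.3% and 41.2%. The authors' fold of the nearest longer-list PPARγ region, where it lay within 10000 bp, had a median of 4.17, against 4.19 in the whole longer list.

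**Figure D2:**
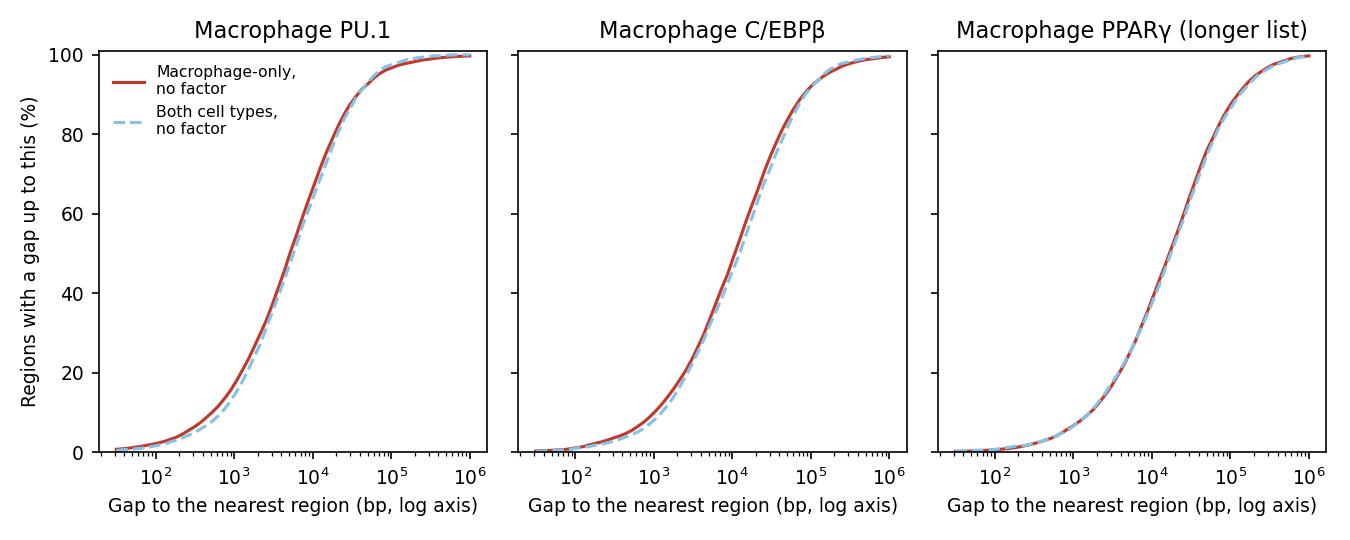
Cumulative share of regions (y axis, percent) whose gap to the nearest PU.1, C/EBPβ or longer-list PPARγ region is up to the value on the x axis (bp, log axis), for factor-free macrophage-only regions (solid) and regions acetylated in both cell types without a factor (dashed). Regions of all widths are pooled. The solid curve runs slightly left of the dashed one for PU.1 and C/EBPβ over short and middle distances, and the PPARγ curves nearly coincide. Median gaps are 5128 and 5614 bp for PU.1, 10714 and 12364 bp for C/EBPβ, and 16756 and 17544 bp for PPARγ.

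The nearest factors lay mostly outside macrophage acetylation. The factor region nearest to a factor-free macrophage-only region overlapped an H3K9Ace region of macrophages in 31.7% of cases (30.8 to 32.5). This was 42% (40.9 to 43.1) for regions acetylated in both without a factor, and 43.5% over all factor regions of the 3 lists. Both classes hold no factor by choice, so only another acetylated region could hold the nearest one. The share over all factor regions carries no such limit. Over all widths, factor-free macrophage-only regions also had an acetylated neighbour within 5000 bp less often, 47.3% against 58.2%. The part of this was not tested. By list, 40.7% of PU.1, 50.6% of C/EBPβ and 41% of PPARγ regions lay in macrophage acetylation.

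Factor density in the flanks declined slowly with distance. Counted by centres, PU.1 had 9.05 regions per 100 kb of flank at 500 to 1000 bp from the edge of factor-free macrophage-only regions, 7.57 at 5000 to 10000 bp and 5.15 at 50000 to 100000 bp. Around macrophage-only regions with a factor, the same bins held 12.1, 10.3 and 5.66. They held 8.06, 7.82 and 5.1 around regions acetylated in both with a factor, and 7.52, 6.92 and 4.97 around those without. Regions acetylated in both with a factor were thus below factor-free macrophage-only regions at 500 to 1000 bp. From 1000 to 10000 bp they were above them, with 9.73 against 8.65 at 1000 to 2000 bp. All 36209 regions had 9.11 at 500 to 1000 bp, close to the value of factor-free macrophage-only regions. C/EBPβ had 5.01, 4.45 and 2.86 per 100 kb around factor-free macrophage-only regions, against 7.27, 6.19 and 3.15 around macrophage-only regions with a factor and 5.15, 4.69 and 2.85 around all 36209. The first 500 bp are depleted by the rule, because a factor region that reaches into the acetylated one removes it from the class.

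**Figure D3:**
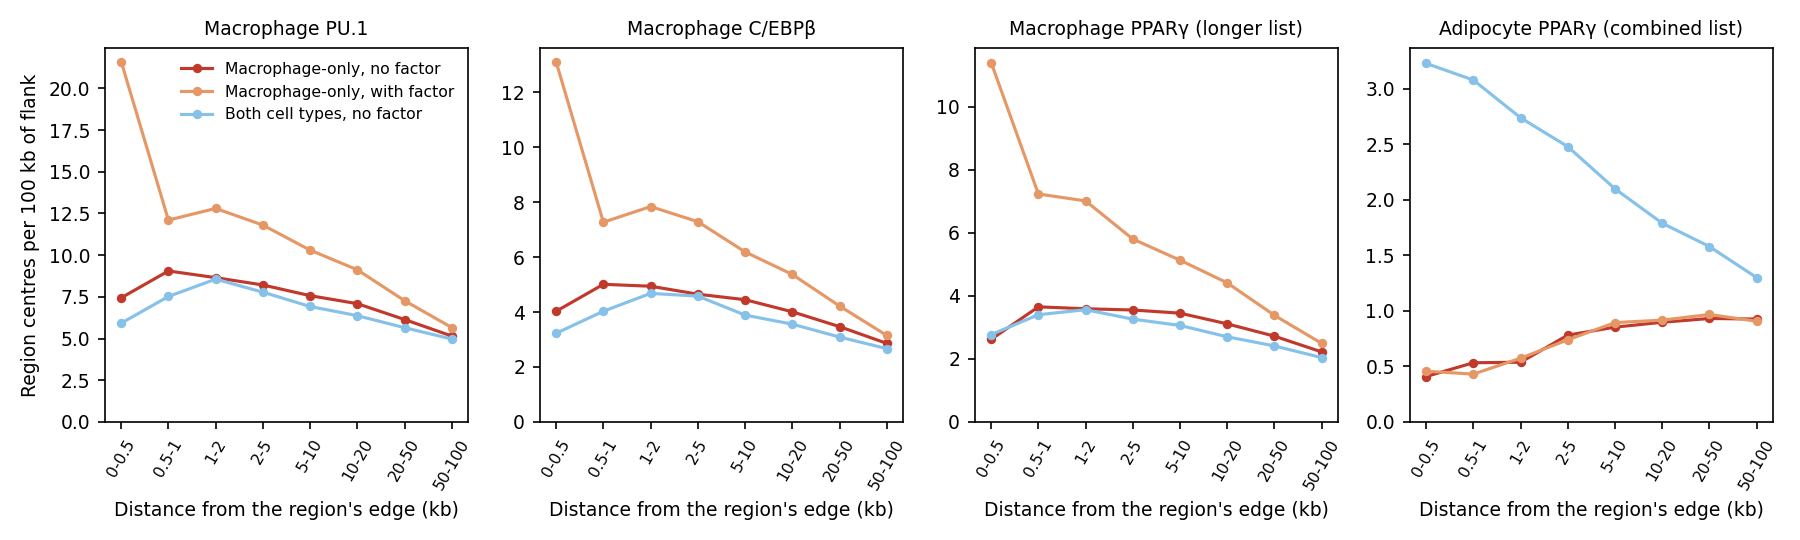
Region centres per 100 kb of flanking sequence (y axis) by distance from the edge of the acetylated region (x axis, kb) for macrophage PU.1, C/EBPβ and PPARγ and for adipocyte PPARγ. For the macrophage factors, factor-free macrophage-only regions (red) lie below macrophage-only regions with a factor (orange), at 9.05 against 12.1 for PU.1 from 0.5 to 1 kb. There, regions acetylated in both without a factor have 7.52. For adipocyte PPARγ, both macrophage-only classes are lowest near the region, while regions acetylated in both without a factor (light blue) are highest there.

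Factor-free macrophage-only regions differed among themselves by how far the nearest factor was. The 2616 regions within 1000 bp of a factor had a median width of 750 bp, and 63.7% (61.9 to 65.5) had another macrophage H3K9Ace region within 5000 bp. The 562 regions over 50000 bp from any factor had a median width of 700 bp, and 6.23% (4.51 to 8.54) had such a neighbour. In the sets between, at 1000 to 10000 bp and 10000 to 50000 bp from a factor, this share was 55.7% and 18%. An acetylated neighbour that overlaps a factor brings that factor near, so the outer sets largely lack such neighbours. Part of the fall is thus built into the split, and how much was not tested. Adipocyte acetylation did not decline evenly. It lay within 5000 bp of 32.3% (30.6 to 34.2) of the set nearest to a factor and 36% (34.8 to 37.3) of the next, then of 19.2% and 10.5% of the outer sets. A total of 2116 regions (18.8%) had neither a factor within 10000 bp nor acetylation of either cell type within 5000 bp, and 2200 (19.5%) had all 3. These counts are not given here for the other classes, so they are not shown to be particular to this one.

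The 5 regions farthest from a factor were narrow, 550 to 800 bp, and lay 204050 to 2176750 bp from the nearest other macrophage H3K9Ace region. The farthest, 600 bp at 19110301 to 19110900 on chromosome 18, was 1674753 bp from a factor and 1676350 bp from another macrophage H3K9Ace region. A pair on chromosome 7, at 94302401 to 94302950 and 94097701 to 94098350, lay 204050 bp apart and 1441829 and 1237129 bp from the nearest PU.1 region. The region at 47763751 to 47764300 on chromosome 15 was 1327105 bp from a factor but only 49575 bp from an adipocyte PPARγ region of the combined list. The last, at 115051651 to 115052450 on chromosome 14, was 1094678 bp from a PPARγ region.

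Adipocyte acetylation, though absent from the regions by the rule, was often not far. The median gap to the nearest adipocyte H3K9Ace region was 13925 bp (13300 to 14550), against 16800 bp (16000 to 17750) for macrophage-only regions with a factor. Within 5000 bp lay 3421 of 11254 (30.4%, 29.6 to 31.3), against 25% (24 to 26) of macrophage-only regions with a factor. The share over all 18916 regions without adipocyte overlap was 28.2%. Adipocyte acetylation touched 72 factor-free macrophage-only regions without sharing a base. It lay within 1000 bp of 1194 of them (10.6%), against 545 of the 7662 macrophage-only regions with a factor (7.11%). Such regions of either class are macrophage-only by a short margin.

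Adipocyte PPARγ, which the rule did not use, was rare at these regions. In the list described as combining 3 datasets, with 12430 regions, it overlapped 62 of 11254 factor-free macrophage-only regions, 0.551% (0.43 to 0.706). The share was 1.71% (1.44 to 2.03) at macrophage-only regions with a factor, 17.1% (16.4 to 17.9) at regions acetylated in both with a factor and 7.87% (7.29 to 8.49) at those without one. Over all 36209 regions the background was 6.73%, and over the 15841 of them under 1000 bp, where most factor-free macrophage-only regions lie, it was 3.42%. In the final adipocyte list, with 2634 regions, it was 3 regions or 0.0267% (0.00907 to 0.0784), against a background of 1.22% (0.499% under 1000 bp), 0.209% at macrophage-only regions with a factor and 1.12% at regions acetylated in both without one. Adipocyte PPARγ sits mostly in adipocyte acetylation, as 67% of the combined list and 81.1% of the final list did. The absence of adipocyte acetylation, which the rule requires, thus moves with the low share, and its part was not tested. The rule also barred longer-list macrophage PPARγ, which overlapped 5585 of the 36209 regions (15.4%). A region overlapped by PPARγ of both cell types can thus stand only in the classes with a factor. The part of this in the differences from those classes was not tested either.

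Within each class the shares under 1000 bp and from 1000 to under 2000 bp were close, while the background was 7.21% from 1000 to under 2000 bp and 13.3% from 2000 to under 5000 bp. Among regions under 1000 bp, the combined list overlapped 0.535% (0.402 to 0.71) of factor-free macrophage-only regions, 2% (1.54 to 2.6) of macrophage-only regions with a factor, 18% of regions acetylated in both with a factor and 7.8% of those without. From 1000 to under 2000 bp the shares were 0.55%, 1.61%, 16.2% and 7.98%. Of the 98 factor-free macrophage-only regions of 2000 bp or more, 2 overlapped adipocyte PPARγ, too few to place them beside the other classes.

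**Figure D4:**
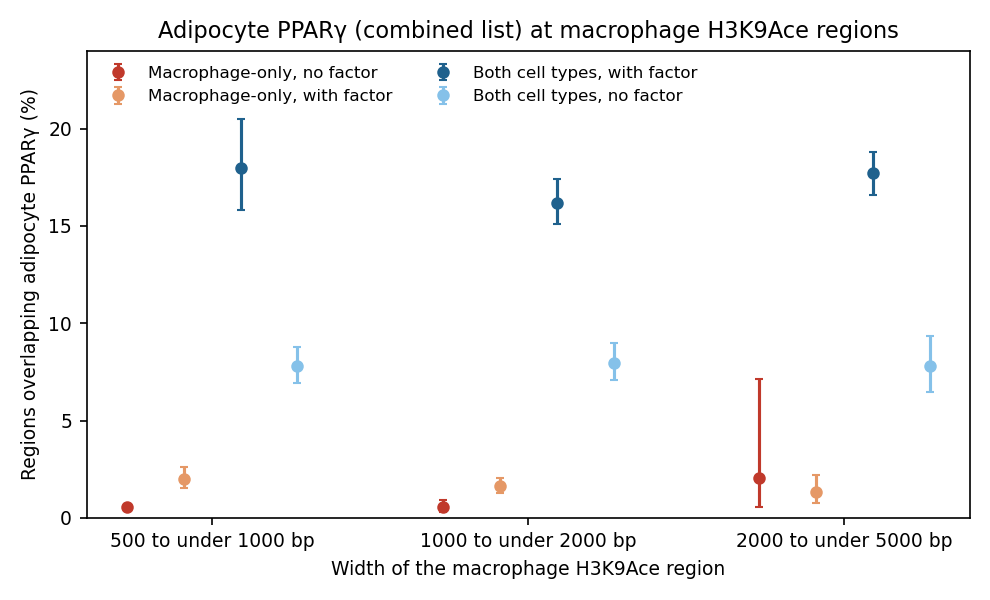
Share of macrophage H3K9Ace regions overlapping a combined-list adipocyte PPARγ region (y axis, percent, with 95% Wilson intervals) by width of the region (x axis) and class. Factor-free macrophage-only regions are lowest in the narrower bands, at 0.535% and 0.55%, and in the widest band their interval, 0.561 to 7.14, spans that of macrophage-only regions with a factor.

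Beyond overlap, adipocyte PPARγ thinned out towards factor-free macrophage-only regions. Its combined list had 0.409 centres per 100 kb in the first 500 bp of flank, 0.782 at 2000 to 5000 bp and 0.927 at 50000 to 100000 bp. Around macrophage-only regions with a factor these values were 0.457, 0.74 and 0.907, and around regions acetylated in both without a factor they ran the opposite way, 3.23, 2.48 and 1.3. Adipocyte H3K9Ace centres, which the rule keeps out of the regions themselves, numbered 1.27, 4.82 and 4.48 per 100 kb in the same bins around factor-free macrophage-only regions. The median gap to the combined list was 56675 bp at factor-free macrophage-only regions and 55570 bp at macrophage-only regions with a factor, against 20875 bp at regions acetylated in both without a factor.

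The 3 factor-free macrophage-only regions with final-list adipocyte PPARγ had mixed scores in it, where the authors' fold has a minimum of 5 and a median of 6.39, and the peak height a minimum of 9 and a median of 12. The region of 550 bp at 30503201 to 30503750 on chromosome 5 had a fold of 6.85 and a height of 14, both above these medians. It lay 25 bp from a macrophage PPARγ region of the longer list, 135 bp from PU.1 and 1100 bp from adipocyte acetylation. The region of 850 bp at 108026801 to 108027650 on chromosome 8 had a fold of 5.87 and a height of 9, with PU.1 31799 bp away. The region of 500 bp at 127341851 to 127342350 on chromosome 1 had a fold of 5.31 and a height of 9, with PU.1 at 173 bp. Both of these folds are below the median and both heights at the minimum.

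Factor-free macrophage-only regions occurred on every autosome, in uneven proportion. They made up 37.7% (35.3 to 40) of the macrophage H3K9Ace regions under 5000 bp on chromosome 13, 37.6% on chromosome 1 and 36.7% on chromosome 18, against 23.4% (21.2 to 25.8) on chromosome 19, 25.3% on chromosome 6 and 26% on chromosome 8. The rule removes every region that overlaps adipocyte acetylation, so the factor-free share is tied to this overlap and is no separate finding. The overlap took 36.9% of macrophage regions on chromosome 13, 36.2% on chromosome 1 and 42.6% on chromosome 18. It took 60.3% on chromosome 19, 55.9% on chromosome 6 and 56.4% on chromosome 8. The order was not the same throughout: chromosome 3, with 39.5%, and chromosome 10, with 40.5%, had less of this overlap than chromosome 18 but smaller factor-free shares, 35.6% and 32.3%. Among macrophage-only regions alone, the factor-free share was more even, from 54.4% (51.6 to 57.1) on chromosome 10 to 64% (59.9 to 67.8) on chromosome 18. Per megabase between the first and last acetylated region, chromosome 11 was densest with 7.5 factor-free macrophage-only regions, and chromosome 6 sparsest with 3.54. Their median width varied little, from 700 to 750 bp over the 19 autosomes, and their median gap to a factor ran from 3090 bp on chromosome 1 to 4225 bp on chromosome 6.

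**Figure D5:**
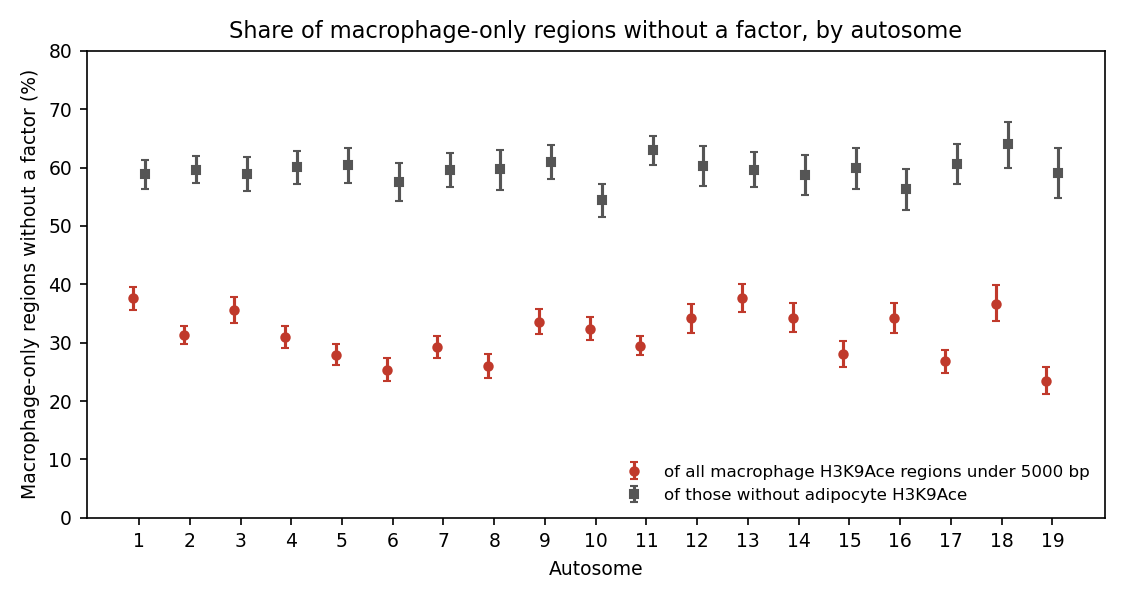
Factor-free macrophage-only regions by autosome (x axis), as a share of all macrophage H3K9Ace regions under 5000 bp (circles) and of those without adipocyte H3K9Ace (squares), in percent with 95% Wilson intervals. The circles range from 23.4% on chromosome 19 to 37.7% on chromosome 13, and the squares from 54.4% on chromosome 10 to 64% on chromosome 18.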

How the data were processed

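Per the labels' protocols, the authors aligned 36-bp reads to mm8 by ELAND with at most 2 mismatches and kept uniquely placed reads. No source used here gives the peak caller's settings. The deposited lists hold positions of called regions. The PPARγ lists also hold, per the file headers, a fold, a signal of whole numbers named peak height, and a false discovery rate read as a percent. Input-biased areas had been removed from the final lists, per the series' design text, and 0 of the regions studied overlapped a deposited masked interval.

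Regions were handled as half-open intervals and printed 1-based. The 20 repeated rows of the adipocyte H3K9Ace list were counted once. Overlap means at least 1 bp, and gaps run from edge to edge. Classes follow the rule in the report. Named regions are the 5 widest, the 5 farthest from a factor, those with final-list adipocyte PPARγ, the 3 longest runs, the 3 densest windows, and those nearest the rule's limits. Each group is 1 library, so no test was made. The rule, the measures and the classes were chosen with earlier results of these data known. Interval functions were checked on simulated regions. Python 3.11.15, numpy 2.4.6, pandas 2.3.3 and scipy 1.17.1 were used. No sequence is printed, since the sequence tables used here are of another build.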

Additional observations from a re-analysis of the deposited data

How the results depend on the processing

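Depth is unknown, and no value has a replicate error. Each list rests on 1 library, except the combined adipocyte PPARγ list, which is described as joining several datasets. No paired analysis was possible because each group holds 1 library. Over 54 recomputed values, 36 stayed within 1.5 times of the count or inside the 95% interval of the value reported, and 18 moved. The number of regions ran from 9164 to 11823, and the median width was 750 bp under every alternative run. Leaving out the width limit gave the same 11254 regions, so its 7 values could not change, though they count among the 36. A limit of 2000 bp left 11156 regions and kept all values within the same limits.

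With regions within 500 bp counted as overlapping, the share with another macrophage H3K9Ace region within 5000 bp was 43.7%, the median gap to a factor 4865 bp, the share with a factor within 10000 bp 69.7%, the share with combined-list adipocyte PPARγ 0.393% and the median gap to adipocyte H3K9Ace 15550 bp. With overlaps counted only from 100 bp, the gap to a factor was 3288 bp and the share with a factor 75.4%. With the final macrophage PPARγ list they were 4099 bp and 71.6%. With macrophage H3K9Ace regions within 1000 bp joined first, the share with an acetylated neighbour was 36.4%, the gap to a factor 4554 bp, the share with a factor 70.6% and the gap to adipocyte H3K9Ace 15300 bp. Between centres the same 4 were 41.5%, 4170 bp, 73.2% and 15275 bp. With the final adipocyte PPARγ list the share with adipocyte PPARγ was 0.0267%. An alternative chosen after seeing the data read the starts of the lists outside BED format as counted from 1. It gave 11253 regions and a median gap to a factor of 3616 bp, and all 7 values stayed within the same limits.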

Other observations

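The 62 factor-free macrophage-only regions with combined-list adipocyte PPARγ lay nearer to macrophage factors than the rest. Their median gap to the nearest factor was 1504 bp (95% interval 538 to 3051), against 3630 bp (3485 to 3779) for the other 11192, while the median width was 750 bp in both. By distance, adipocyte PPARγ overlapped 26 of 2616 regions within 1000 bp of a factor, 0.994% (0.679 to 1.45), and 25 of 5749 at 1000 to 10000 bp, 0.435% (0.295 to 0.641). Adipocyte H3K9Ace was within 1000 bp of 13 of the 62 (21%, 12.7 to 32.6), against 10.6% (10 to 11.1) of the others. Farther out the intervals overlapped, with 37.1% (26.2 to 49.5) against 30.4% (29.5 to 31.2) within 5000 bp and 48.4% (36.4 to 60.6) against 43.2% (42.2 to 44.1) within 10000 bp. The median gap to adipocyte H3K9Ace was 10525 bp (3700 to 19700), against 13950 bp (13350 to 14550). Of the adipocyte PPARγ regions found there, 6 of 62 (9.68%) overlapped adipocyte H3K9Ace, against 67% of the whole combined list, as the rule largely requires. These values were looked at after the overlaps had been seen and carry no test. The overlap itself was often partial, with a median of 363.5 bp and a lowest value of 1 bp.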
